A study of Mus musculus with 15 samples.

Results

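The genes described here form the R-spondin axis: the receptors Lgr4, Lgr5 and Lgr6, the ubiquitin ligases Rnf43 and Znrf3, and the secreted ligands Rspo1, Rspo2, Rspo3 and Rspo4. They were taken by name, not by their values, after the Entrez identifiers of the files had been matched to mouse symbols, and all 9 were found among the 36528 genes listed. The study sequenced polyA RNA of sorted skin tumour cells in 15 libraries, all from a mouse model of basal cell carcinoma, a cancer of Hedgehog signalling. There were 4 libraries labelled control, 8 after 6 days of vismodegib and 3 after 14 days. The treatment label does not say what, if anything, the control mice were given. The control titles carry the letters MCT, which the labels do not explain. Vismodegib inhibits SMO, the membrane protein that passes the Hedgehog signal into the cell. All 3 groups, controls included, carried K14Cre-ER, the floxed alleles Ptch1fl/fl and p53fl/fl, and Lgr5GFP. The keratin 14 promoter thus confines the inducible Cre to basal keratinocytes and their descendants, the floxed genes are the Hedgehog receptor Ptch1 and p53, and a GFP marks Lgr5. The sources used here do not give how the Lgr5GFP allele was built, the gate of the sort or the age of the mice. The labels do not say whether each library came from its own animal, and every p-value below measures the spread between libraries.

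R-spondins are secreted proteins that strengthen Wnt signalling without being Wnt ligands. RNF43 and ZNRF3 are transmembrane ligases that ubiquitinate Frizzled receptors and so remove them from the cell surface. An R-spondin bound to LGR4, LGR5 or LGR6 draws the ligase into a complex that is cleared from the membrane, and Frizzled receptors then stay at the surface. In skin, Lgr5 marks cycling stem cells of the lower hair follicle and Lgr6 marks cells of the upper follicle, whereas Lgr4 is expressed more widely. Rnf43 and Znrf3 are themselves Wnt target genes in several tissues, which makes them a feedback brake.

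Rnf43 is the gene whose level differed most clearly between groups, and Lgr4 is the receptor whose mean was lowest at 14 days, so the 250 bases before their annotated starts are shown. Both come from the RefSeq promoter table for GRCm38.p6, the patch release of the build named in the submitters' processing notes. Rnf43 (Entrez Gene 207742, chromosome 11, 87663087 to 87735539, plus strand) has 2 starts in that table. Lgr4 (Entrez Gene 107515, chromosome 2, 109917647 to 110014257, plus strand) has 1. Capitals mark CG dinucleotides, the pairs at which mammalian DNA is methylated.
Rnf43 first start, chr11:87662837-87663086, plus strand: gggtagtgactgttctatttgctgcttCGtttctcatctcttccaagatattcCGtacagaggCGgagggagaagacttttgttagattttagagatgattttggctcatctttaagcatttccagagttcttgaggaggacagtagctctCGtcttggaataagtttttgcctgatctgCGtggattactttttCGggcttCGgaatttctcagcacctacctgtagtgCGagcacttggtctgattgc
Rnf43 inner start, chr11:87699647-87699896, plus strand: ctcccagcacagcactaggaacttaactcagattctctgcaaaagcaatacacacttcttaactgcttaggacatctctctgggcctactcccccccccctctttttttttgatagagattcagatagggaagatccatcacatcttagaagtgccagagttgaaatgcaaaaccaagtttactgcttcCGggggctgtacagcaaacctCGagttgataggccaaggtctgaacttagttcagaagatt
Lgr4 start, chr2:109917397-109917646, plus strand: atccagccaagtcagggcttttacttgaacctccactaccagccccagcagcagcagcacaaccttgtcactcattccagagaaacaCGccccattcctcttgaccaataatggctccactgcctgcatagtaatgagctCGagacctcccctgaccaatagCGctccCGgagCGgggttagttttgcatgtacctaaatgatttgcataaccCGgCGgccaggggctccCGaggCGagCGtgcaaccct
The stretch before the first Rnf43 start holds 8 CG pairs and 44.4% G or C, and that before the inner start 2 CG pairs and 45.2%. Lgr4 has 10 CG pairs and 55.6%. The median of 32544 promoters in the table is 6 CG pairs and 52.4%. Counts per gene do not tell which Rnf43 start was used. A search on both strands of the 300 bases from 250 before to 50 after each start looked for CTTTGAT or CTTTGAA (TCF/LEF type), GACCACCCA (GLI type) and TATAAA. None of the 6 windows found for Lgr4, Lgr6, Rnf43, Rspo1 and Rspo4 held any of them, against 8.67%, 0.246% and 13.6% of all promoters. That says only that these letters are not in these windows.

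The other receptors and the other ligase lie as follows on GRCm38. Lgr5 (Entrez Gene 14160) is on chromosome 10, 115450314 to 115587780, minus strand, and A930009A15Rik overlaps it on the opposite strand. Lgr6 (Entrez Gene 329252) is on chromosome 1, 134983300 to 135105374, minus strand. Znrf3 (Entrez Gene 407821) shares chromosome 11 with Rnf43, at 5276329 to 5444847, minus strand. Of the ligand genes, Rspo1 is on chromosome 4 (124986401 to 125009102), Rspo2 on chromosome 15 (43020788 to 43171594), Rspo3 on chromosome 10 (29453106 to 29535867) and Rspo4 on chromosome 2 (151842647 to 151874668). Rspo1, Rspo3 and Rspo4 have annotated antisense transcripts (Gm12930, Gm48159 and Rspo4os), and Gm20276 overlaps Rspo3 on its own strand. Within Rnf43 lie the small nuclear RNA gene Gm25968 on the opposite strand and the intronic transcript 1110028F11Rik on the same strand. Whether the counting used strand is not stated, and reads of such partners cannot be told apart.

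Total counts ran from 27336935 to 256569828 per library, and 3 counts equalled at most 0.11 CPM. By the numbers in the submitters' sample identifiers the libraries form 3 ranges, not named as batches in any label. The first, A, has controls 1, 2 and 3 with 6-day replicates 1, 3, 4, 6 and 8, and totals up to 38657170. Control 4 with 6-day replicates 2, 5 and 7 makes up range B, and the 3 14-day libraries make up range C, with totals from 93183564 upward in both. Range C and 14 days cannot be told apart. Summed basal keratinocyte markers (8 of 8 measured) lay between 11903 and 37059 CPM in the 15 libraries. The summed Hedgehog readouts (6 genes, Gli1, Ptch1 and Hhip among them) ran from 1276 to 5631 CPM in control, 265 to 3303 at 6 days and 228 to 618 at 14 days. Markers of other cells were also read. Summed over each list, fibroblast markers reached at most 21.4 CPM and endothelial markers 13.5 CPM in any library. Melanocyte markers ran from 34.6 to 862 CPM, smooth muscle and pericyte markers from 206 to 790 CPM, nerve and Schwann markers from 93.9 to 294 CPM and suprabasal keratinocyte markers from 254 to 5966 CPM. The smooth muscle and pericyte sum came mostly from Pdgfrb and Cspg4. Acta2, Tagln and Myh11 of that list averaged at most 13.1 CPM in any group. Rgs5 and Des were at or under 3 counts in every control and 6-day library. The part of these other cell types in the results was not tested.

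Compared per gene length, the 9 transcripts stood on 3 tiers. Over the 15 libraries the mean deposited RPKM was 117 for Lgr5, 92.3 for Lgr6 and 83.5 for Lgr4. It was 9.75 for Rnf43 and 4.29 for Znrf3, and 0.0694 for Rspo1, 0.0461 for Rspo3, 0.00676 for Rspo4 and 0.000407 for Rspo2. In each of the 15 libraries the least abundant receptor lay above the more abundant ligase, and Rnf43 lay above Znrf3. The 3 receptors did not separate from one another: Lgr5 exceeded Lgr6 in 10 of 15 libraries and Lgr6 exceeded Lgr4 in 7 of 15. In control the mean RPKM put Lgr4 (108) before Lgr5 (98.1) and Lgr6 (65.4), although by medians Lgr5 (105) came before Lgr4 (96.4). At 14 days the means were 124 for Lgr5, 119 for Lgr6 and 55.2 for Lgr4.

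**Figure D1:**
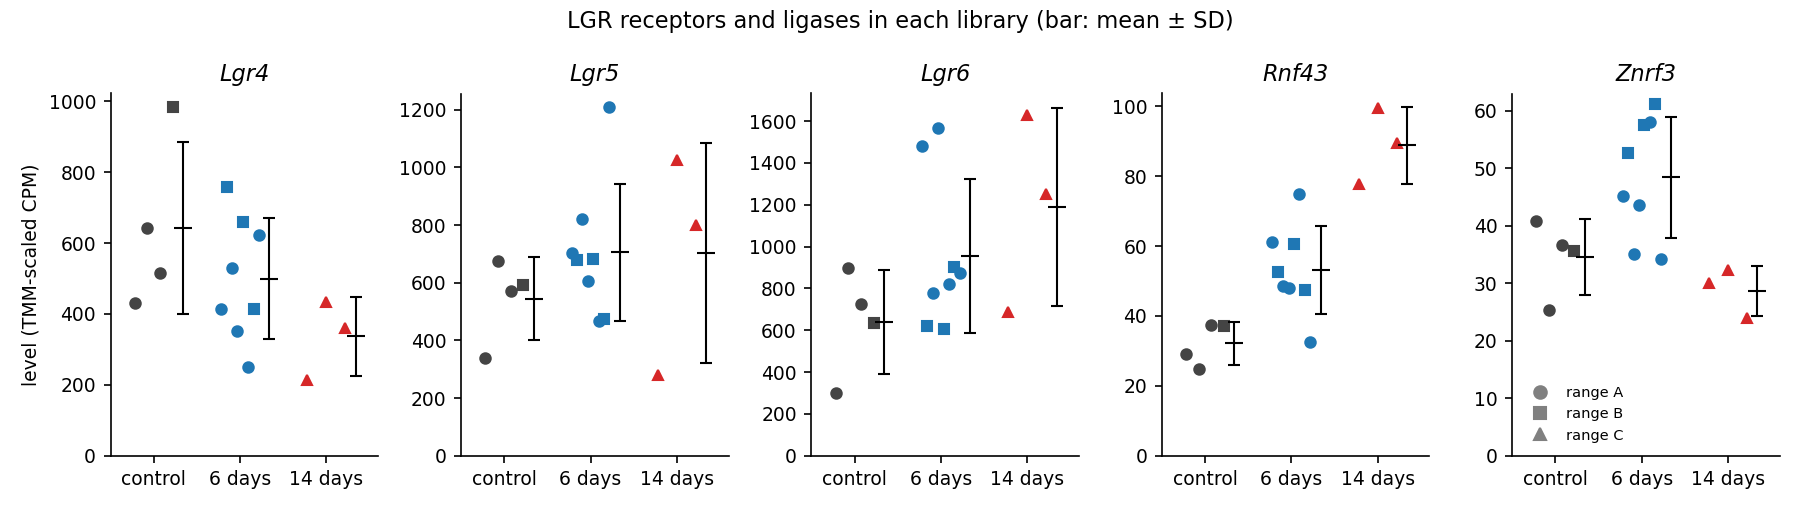
TMM-scaled CPM (vertical axes, each from 0) of the 3 receptors and 2 ligases in every library, by group, with black bars for mean and SD and symbols for identifier ranges. The 3 14-day libraries sit between 77.6 and 99.6 CPM for Rnf43, above every control and 6-day library, while the receptors' groups overlap.

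Rnf43 had risen by 14 days, and it was the 1 member to pass the test in any comparison. Its level was 29.1, 25.0, 37.3 and 37.2 CPM in the 4 controls. At 6 days it ran from 32.4 through a median of 50.6 to 74.9 CPM, and at 14 days it was 77.6, 99.6 and 89.5 CPM. Of the 6-day libraries, 7 of 8 lay above all controls, the exception being replicate 8, and the 14-day libraries lay above every library of both other groups. The means were 32.1 ± 6.16 (SD, n = 4), 53.2 ± 12.5 (SD, n = 8) and 88.9 ± 11.0 (SD, n = 3) CPM. In bulk RNA such as this, a change in the share of cells of a type and a change in RNA per cell cannot be told apart.

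At 14 days against control Rnf43 was 2.77-fold higher, or 1.47 on the log2 scale (SE 0.24, adjusted p = 0.0038 by edgeR's quasi-likelihood test). Of the 6 members that passed the filter on low counts (Rspo2, Rspo3 and Rspo4 did not) it was the 1 called, where 6.6% of all 18751 genes tested were called, 3.25% higher and 3.35% lower. Groups that do not overlap, as those of Rnf43, were seen for 23.4% of genes, and 11.7% were separate with 14 days higher. DESeq2 and limma-voom called Rnf43 too, with 14.7% and 22.4% of all genes called. The call held in each of the 15 fits that left out 1 library, with log2 fold changes from 1.36 to 1.57 and adjusted p up to 0.0185. Without the 4 libraries of range B the log2 fold change was 1.53 (adjusted p = 0.00466 by edgeR), with 13% of genes called, and with range B as a covariate it was 1.49 (adjusted p = 0.00107 by edgeR), with 17% called.

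At 6 days against control edgeR called none of the 6 members (2 had an unadjusted p under 0.05), where 1.26% of all genes were, 0.485% higher and 0.773% lower. Nor did any member separate the groups, as 2.69% of genes did. Rnf43 came nearest, at 1.65-fold, with 0.73 on the log2 scale (SE 0.20, adjusted p = 0.0926 by edgeR). In range A alone the value was 0.78, and in range B, which has 1 control, 0.52, and the difference between the ranges did not pass (adjusted p = 0.877 by edgeR's interaction term). DESeq2 called it (adjusted p = 0.0266), with 4.51% of all genes called, and so did edgeR with range B as a covariate (adjusted p = 0.0458), with 4.62%. It did not pass by edgeR with the identifier range as a covariate (adjusted p = 0.0626, 4.73% of genes called), nor by limma-voom (adjusted p = 0.0859, 4.41%). From 6 to 14 days Rnf43 stood 1.67-fold higher (log2 fold change 0.74, SE 0.20, adjusted p = 0.0555 by edgeR), with groups that did not overlap. In that comparison edgeR called none of the 6 members (2 had an unadjusted p under 0.05) and 3.89% of all genes, 2.14% higher and 1.75% lower. The groups did not overlap for 11.7% of genes, and 5.42% had 14 days wholly above 6 days. Rnf43 passed there with range B as a covariate (adjusted p = 0.0287 by edgeR, 10.9% of genes called), by DESeq2 (adjusted p = 0.0144, 13.8%) and by limma-voom (adjusted p = 0.0011, 25%).

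Znrf3, the paralogue of Rnf43, was called by edgeR in no comparison and had its highest mean at 6 days. It measured 40.8, 25.3, 36.7 and 35.6 CPM in control, 34.2 through 48.9 to 61.2 CPM at 6 days, and 30.0, 32.3 and 23.9 CPM at 14 days. The 6-day libraries were the high ones, 6 of 8 lying above all controls, and all 3 14-day libraries lay below all 8 of them. Means were 34.6 ± 6.58 (SD, n = 4), 48.5 ± 10.5 (SD, n = 8) and 28.7 ± 4.34 (SD, n = 3) CPM. The log2 fold change was 0.49 at 6 days (SE 0.19, adjusted p = 0.278 by edgeR), -0.27 at 14 days (SE 0.24, adjusted p = 0.534 by edgeR) and -0.76 from 6 to 14 days (SE 0.22, adjusted p = 0.0635 by edgeR). For Znrf3 at 6 days, range A alone gave 0.32 and range B 0.68. Of all genes, 6.28% had 14 days wholly below 6 days, as Znrf3 did. DESeq2 (adjusted p = 0.0111) and limma-voom (0.00212) called Znrf3 lower at 14 than at 6 days.

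The 2 ligase transcripts were most unequal at 14 days. The ratio of Rnf43 to Znrf3 in deposited RPKM was 1.21, 1.67, 1.73 and 1.77 in control, and ran from 1.31 through 1.83 to 2.35 at 6 days. At 14 days it was 4.39, 5.23 and 6.35, above all 12 other libraries. The means were 1.59 ± 0.260 (SD, n = 4), 1.89 ± 0.364 (SD, n = 8) and 5.33 ± 0.983 (SD, n = 3). Their summed RPKM was 9.57 ± 1.67 in control, 14.5 ± 2.98 at 6 days and 18.8 ± 1.97 at 14 days. The ratio is a description without a test of its own, and for 14 days it cannot be told apart from range C. The share of other gene pairs whose ratio separates in this way was not computed.

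**Figure D2:**
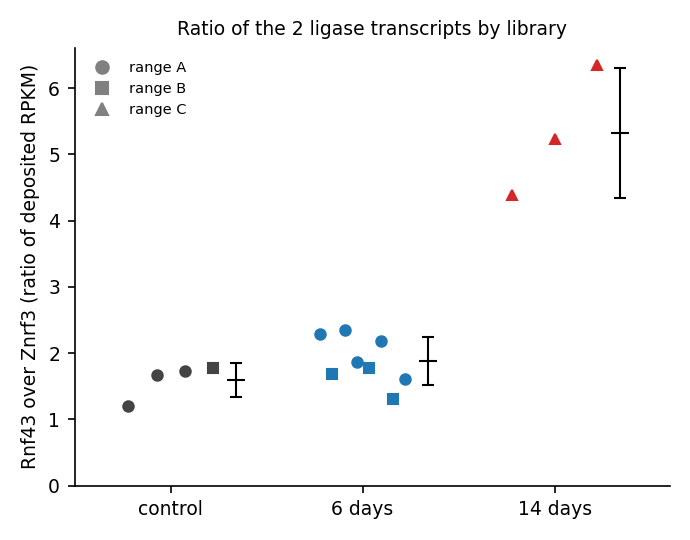
Ratio of the deposited RPKM of Rnf43 to that of Znrf3 (vertical axis, from 0) in each library by group, with black bars for mean and SD and symbols for identifier ranges. The 14-day libraries lie between 4.39 and 6.35 and the other 12 libraries between 1.21 and 2.35.

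Among the receptors, Lgr4 had lower and Lgr6 higher means under treatment, and neither passed the test. Lgr4 measured 431, 643, 516 and 984 CPM in control, 250 through 472 to 757 CPM at 6 days, and 214, 435 and 361 CPM at 14 days. Control 4 was the highest of all libraries, and 2 of the 3 14-day libraries lay below all controls. The mean went from 643 ± 243 (SD, n = 4) over 500 ± 172 (SD, n = 8) to 337 ± 112 (SD, n = 3) CPM. The log2 fold change was -0.36 at 6 days (SE 0.29, adjusted p = 0.731 by edgeR) and -0.93 at 14 days (SE 0.38, adjusted p = 0.153 by edgeR). From 6 to 14 days it was -0.57 (SE 0.34, adjusted p = 0.333 by edgeR). The 6-day value in range A was -0.30, and in range B it was -0.70.

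Lgr6 measured 301, 896, 724 and 632 CPM in control, 607 through 845 to 1565 CPM at 6 days, and 687, 1631 and 1249 CPM at 14 days. Groups overlapped in all comparisons, and 2 of the 3 14-day libraries exceeded every control. Means were 638 ± 250 (SD, n = 4), 956 ± 367 (SD, n = 8) and 1189 ± 475 (SD, n = 3) CPM. The log2 fold change was 0.58 at 6 days (SE 0.34, adjusted p = 0.540 by edgeR) and 0.90 at 14 days (SE 0.41, adjusted p = 0.197 by edgeR). From 6 to 14 days it was 0.32 (SE 0.36, adjusted p = 0.641 by edgeR). Range A alone gave 0.77 at 6 days and range B 0.16, and the difference between ranges did not pass (adjusted p = 0.779 by edgeR's interaction term).

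Lgr5, the gene marked by GFP in these mice, had overlapping groups and near-equal means at 6 and 14 days. Its levels were 340, 674, 572 and 593 CPM in control, 466 through 681 to 1210 CPM at 6 days, and 281, 1027 and 800 CPM at 14 days. The lowest and the second highest of the 15 libraries were both 14-day libraries, a 3.66-fold spread within the group. Means were 545 ± 143 (SD, n = 4), 705 ± 236 (SD, n = 8) and 703 ± 383 (SD, n = 3) CPM. The log2 fold change was 0.37 at 6 days (SE 0.32, adjusted p = 0.753 by edgeR) and also 0.37 at 14 days (SE 0.39, adjusted p = 0.625 by edgeR). From 6 to 14 days it was -0.0049 (SE 0.35, adjusted p = 0.995 by edgeR). Control 1 and 14-day replicate 1 were the lowest of their groups for all 3 receptors.

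The spread between libraries of a group was wider for receptors than for ligases. The coefficient of variation over a group ran from 26.3% to 54.5% for Lgr4, Lgr5 and Lgr6, and from 12.4% to 23.6% for Rnf43 and Znrf3. Over all 15 libraries the highest value exceeded the lowest 4.59-fold for Lgr4, 4.31-fold for Lgr5, 5.41-fold for Lgr6, 3.99-fold for Rnf43 and 2.56-fold for Znrf3.

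Shares of the receptor transcripts take out the part of this spread that the 3 genes have in common. Lgr4 made up 39.8 ± 7.96% of the summed receptor RPKM in control, 27.2 ± 8.26% at 6 days and 19.4 ± 3.06% at 14 days. Its share was 32.8% or more in every control and 22.9% or less in every 14-day library. Lgr6 went the other way, with 23.7 ± 5.42%, 32.3 ± 11.5% and 40.9 ± 3.48%, from at most 28.6% in any control to at least 38.5% at 14 days. Lgr5 held 36.4 ± 3.25%, 40.5 ± 6.60% and 39.7 ± 6.47% (SD over 4, 8 and 3 libraries throughout). The summed receptor RPKM itself was 272 ± 76.9 in control, 301 ± 60.4 at 6 days and 298 ± 132 at 14 days.

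At 6 days the shares varied widely between libraries. In range B, Lgr6 held 20.3%, 21.0% and 37.5% in 6-day replicates 2, 5 and 7, against 19.3% in control 4. The Lgr4 share of the same 3 libraries was 40.6%, 37.4% and 28.0%, against 49.0% in control 4. In range A, 6-day replicates 1, 4 and 6 had Lgr4 at 20.0%, 18.0% and 20.0% and Lgr6 at 43.7%, 48.9% and 40.0%. Replicates 3 and 8 of that range had Lgr4 at 28.1% and 25.3% and Lgr6 at 25.2% and 21.7%. Shares like those at 14 days were thus also seen at 6 days. These shares are described without a test, and for 14 days they cannot be told apart from range C.

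**Figure D3:**
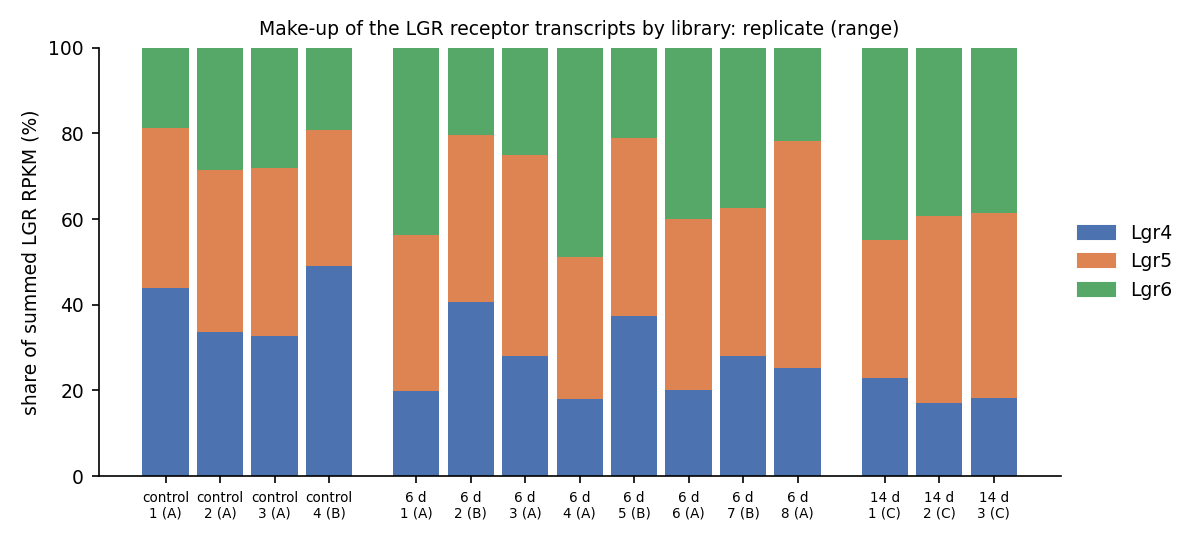
Share of Lgr4, Lgr5 and Lgr6 (stacked, vertical axis in % of their summed deposited RPKM) in each library, labelled by group, replicate number and identifier range. Lgr4 takes 32.8 to 49.0% in the controls and 17.1 to 22.9% at 14 days, and Lgr6 18.8 to 28.6% and 38.5 to 44.9%.

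**Figure D4:**
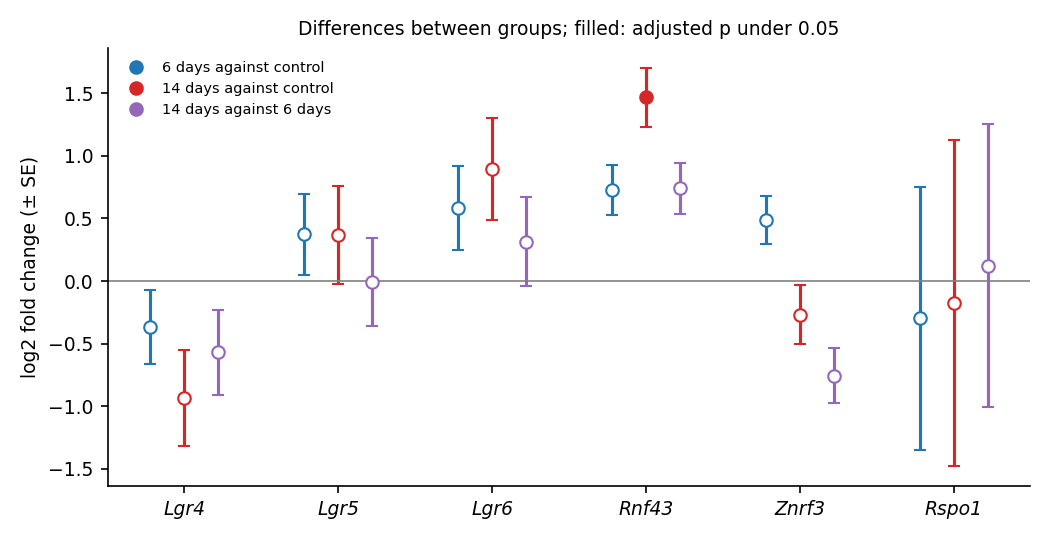
Log2 fold changes with SE (vertical axis) of the 6 members that passed the filter on low counts in the 3 comparisons, filled where the adjusted p was under 0.05. The 1 filled point is Rnf43 at 14 days against control, at 1.47, and Rspo1 has the widest errors.

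R-spondin transcripts were low in every library. More than 3 reads were found for Rspo1 in 11 of 15 libraries, for Rspo3 in 6, for Rspo4 in 3 and for Rspo2 in 0. Rspo1, the ligand with the most reads in control, had 0, 6, 14 and 10 reads there, 12, 13 and 35 reads at 14 days, and 0 to 91 reads at 6 days. It passed the filter on low counts and was not called: its log2 fold change was -0.30 at 6 days (SE 1.05, adjusted p = 0.968 by edgeR) and -0.17 at 14 days (SE 1.30, adjusted p = 0.956 by edgeR). Rspo2 had 1 read in the 15 libraries together, in 6-day replicate 1. Rspo4 had no read in the 4 controls, 11, 4, 3 and 1 reads in 4 of the 8 6-day libraries, and 4 reads in 1 of 3 14-day libraries. At 0 reads the shallowest library still allows up to 0.11 CPM and the deepest up to 0.0117 CPM, limits that cover counting error only.

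Rspo3 had its highest CPM at 14 days. Controls had 3, 0, 1 and 5 reads, and 5 of the 8 6-day libraries had none, the others 1, 10 and 26. The 10 and 26 reads, in 6-day replicates 2 and 7, were 0.113 and 0.111 CPM. In those libraries 3 counts equal 0.0338 and 0.0128 CPM. The 3 14-day libraries had 110, 21 and 77 reads, or 0.753, 0.163 and 0.648 CPM. Each of these lay above all 12 other libraries, whose highest value was 0.113 CPM. Among the genes that passed the filter, 11.7% lay wholly higher at 14 days than in control and 5.42% wholly higher than at 6 days. On the scale of log2(CPM + 0.1) the mean difference was 1.99 against control (two-sided exact permutation test, p = 0.0286) and 2.14 against 6 days (exact permutation p = 0.00606). Both are the smallest p that such groups allow. Adjusted over the 9 such tests of Rspo2, Rspo3 and Rspo4 they became 0.129 and 0.0545 in the exact permutation tests. In an edgeR fit with no filter the adjusted p over all genes was 0.231 and 0.106. At 6 days against control the Rspo3 difference was -0.15 (exact permutation p = 0.586).

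The 14-day libraries also differed in markers of other cell types. Rspo3 is known from stromal and endothelial cells, among others. Summed fibroblast markers (8 measured) were 9.39 to 21.4 CPM in control, 4.19 to 19.8 CPM at 6 days and 5.32 to 8.84 CPM at 14 days, with Lum at 0 in control and Dpt at 0 at 6 days. Endothelial markers (8 measured) were 8.96 to 13.5, 5.70 to 9.71 and 5.22 to 7.86 CPM, with Emcn at 0 in the control and 6-day libraries. Dermal papilla markers (6 measured) were 25.2 to 45.8, 18.8 to 54.5 and 20.4 to 34.9 CPM. Most of that sum was Trps1, with group means of 28.8, 35.3 and 26.4 CPM. Each other gene of the list averaged at most 1.22 CPM in any group. Myeloid markers (8 measured) were 4.13 to 15.7, 1.55 to 10.05 and 19.0 to 29.2 CPM, with Adgre1 at 0 at 6 days. Suprabasal keratinocyte markers (6 measured) were 254 to 724, 320 to 1175 and 297 to 5966 CPM, and Krt10 among them was called higher at 14 days against control and against 6 days by edgeR. Of the 8 basal keratinocyte markers, edgeR called Col17a1, Itga6 and Cdh1 higher at 14 days against control, where 6.6% of all genes were called. Epcam of that list was not called (log2 fold change -0.36). Of the 8 myeloid markers, Adgre1 was called higher in that comparison. Adgre1, Csf1r and C1qa were higher against 6 days, where 3.89% of all genes were called. Twist2 (fibroblast) and Egfl7 (endothelial) were called lower at 14 days against control. The Twist2 call rested on low and uneven values: controls ranged from 0 to 5.02 CPM (mean 1.48), and the groups overlapped. Of the 6 fibroblast markers tested, 2 had a positive log2 fold change in that comparison. The larger was Dcn, with 1.10 (adjusted p = 0.555 by edgeR). Relative to 6 days Dcn lay wholly higher, with 2.36, and was not called (adjusted p = 0.114 by edgeR). The part of such cells in the Rspo3 and Rnf43 values was not tested.

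**Figure D5:**
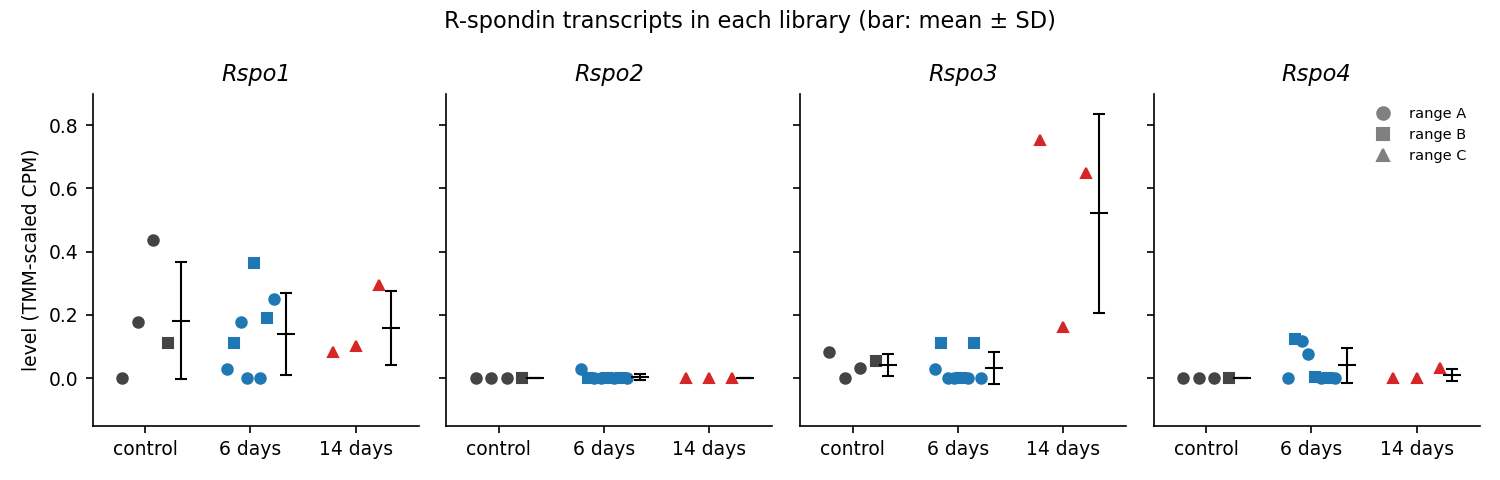
TMM-scaled CPM (vertical axis, shared) of the 4 R-spondin genes in every library by group, with black bars for mean and SD and symbols for identifier ranges. Rspo3 is at 0.163 to 0.753 CPM at 14 days and at most 0.113 CPM elsewhere, and Rspo2 has 1 read in all.

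The genes around the axis were read as 5 lists, against the shares of all genes called given above (1.26%, 6.6% and 3.89% by edgeR in the 3 comparisons). Of 26 genes for Frizzled and LRP receptors, Dishevelled and cofactors of R-spondin and Wnt secretion, 26 were tested. By edgeR none was called at 6 days (4 had an unadjusted p under 0.05), 2 were higher at 14 days against control and 2 at 14 against 6 days, in each case Iqgap1 and Wls. DESeq2 called 1, 6 and 5 of them in the 3 comparisons and limma-voom 0, 8 and 10, both with larger shares of all genes. The median log2 fold changes of the list were 0.07, 0.27 and -0.06, where those of all genes were 0.03, -0.02 and -0.06. Iqgap1, a scaffold that binds LGR4, rose 1.99-fold from 412 ± 96.0 CPM in control to 820 ± 119 CPM by day 14 (adjusted p = 0.0104 by edgeR). It missed the threshold without 14-day replicate 1 (adjusted p = 0.0542 by edgeR), and from 6 to 14 days without 14-day replicate 1 or 3 (up to 0.231). The 14-day call was also lost in the fit of only the 2 groups compared (adjusted p = 0.0764 by edgeR). Wls, which carries Wnt proteins to the cell surface, was 214 ± 29.6 CPM in control and rose 1.54-fold to 331 ± 49.7 CPM (adjusted p = 0.0442 by edgeR). The Wls call held in 3 of the 15 fits that left out 1 library (control 1 or 6-day replicate 1 or 3), and its adjusted p reached 0.202 by edgeR in the others. It was also lost under 5 of 9 other settings (RLE or upper-quartile factors, no filter, only the 2 groups, range B left out), with adjusted p up to 0.127 by edgeR. From 6 to 14 days it also held in 3 of 15 (without control 1 or 4 or 6-day replicate 3), with adjusted p up to 0.390 by edgeR. The syndecans Sdc1 (591 CPM in control, 718 CPM at 14 days) and Sdc4 (296 and 334 CPM) had the highest RPKM of the other genes and were not called.

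Readouts and feedback genes of Wnt signalling gave no edgeR call at 6 days. Of 16 listed genes 13 were tested, and 11, 9 and 5 of these had a positive log2 fold change at 6 days, at 14 days and from 6 to 14 days. Their medians were 0.68, 0.44 and -0.48. By edgeR none was called at 6 days (5 had an unadjusted p under 0.05), 1 was higher at 14 days, and none was called from 6 to 14 days (5 unadjusted). DESeq2 called 0, 4 and 2 of them (4.51%, 14.7% and 13.8% of all genes) and limma-voom 1, 6 and 4 (4.41%, 22.4% and 25%). Both called Ccnd1 lower at 14 days against control and Lef1 lower from 6 to 14 days. The 6-day call of limma-voom was Ccnd1, lower. Ccnd1 was 258 ± 180 CPM in control and 43.4 ± 6.14 CPM at 14 days, below all controls (adjusted p = 0.114 by edgeR). Of all genes tested, 11.7% lay wholly lower at 14 days than in control. The gene edgeR called was Tnfrsf19 (TROY), a receptor of follicle stem cells, with 17.4 ± 18.5 CPM in the controls and 173 ± 179 CPM in the 14-day libraries (adjusted p = 0.0464 by edgeR). Its groups overlapped, and its call held in 5 of the 15 fits that left out 1 library (control 1, 14-day replicate 2 or 6-day replicate 5, 6 or 8), with adjusted p up to 0.285 by edgeR in the others. Over those fits its log2 fold change ran from 2.05 to 4.36. Upper-quartile factors, the fit of only the 2 groups and leaving out range B also ended the call (adjusted p up to 0.124 by edgeR). Axin2, the common readout of beta-catenin activity, was 11.6 ± 12.9, 32.6 ± 18.7 and 19.7 ± 1.44 CPM. Its log2 fold change was 1.49 at 6 days (adjusted p = 0.318 by edgeR), 1.93 in range A and 0.79 in range B alone, and 0.76 at 14 days (adjusted p = 0.573 by edgeR). The 14-day value of Axin2 rested on the setting: it was 1.67 with range B as a covariate (adjusted p = 0.0195 by edgeR) and 1.90 with range B left out (adjusted p = 0.0262 by edgeR). By limma-voom it was 2.02 (adjusted p = 0.0326), and with 1 library left out it ran from 0.42 to 1.91 with no call. With the identifier range as a covariate the 6-day value was 1.56 (adjusted p = 0.0392 by edgeR), and with range B as a covariate 1.57 (0.0253 by edgeR). Of the 15 fits that left out 1 library, 1 called Axin2 at 6 days, that without control 4 (adjusted p = 0.0406 by edgeR). The Wnt inhibitor genes Wif1 (279 CPM in control, 299 CPM at 14 days) and Apcdd1 (57.8 and 256 CPM, adjusted p = 0.0905 by edgeR) and the growth gene Myc (48.4 and 107 CPM) did not pass by edgeR. Apcdd1 at 14 days passed with range B as a covariate (adjusted p = 0.0352 by edgeR), without control 1 (0.0233 by edgeR, log2 fold change 3.05 against 2.15), by DESeq2 (0.0283) and by limma-voom (0.00361), and Myc passed by limma-voom (0.0306).

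Intracellular Wnt components were mostly not called. Of 11 genes of the beta-catenin destruction and TCF complexes, all tested, edgeR called none in any of the 3 comparisons, and 1, 2 and 1 had an unadjusted p under 0.05. A count of 0 of 11 is close to the shares of all genes given above. At 14 days against control DESeq2 called Ctnnb1 lower (adjusted p = 0.0348), and limma-voom called Ctnnb1 lower (0.0263) and Pygo2 higher (0.0489). Their medians were 0.06, -0.16 and -0.28. Ctnnb1, which encodes beta-catenin, was 1450 ± 494 CPM in the controls and 890 ± 63.6 CPM in the 14-day libraries (adjusted p = 0.111 by edgeR). Its 14-day libraries lay below all controls, as did those of 11.7% of all genes tested. The kinase genes Csnk1a1 (654 and 586 CPM) and Gsk3a (83.7 and 77.4 CPM) and Pygo2 (122 and 133 CPM) had overlapping groups.

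Among further ligase and receptor genes, listed by name or family, a single gene passed by edgeR. Of these 14 genes 9 were tested, and edgeR called 1, lower at 14 days against control. DESeq2 called 1, 3 and 2 of the 9 in the 3 comparisons and limma-voom 1, 4 and 2. The gene edgeR called was Znrf2, a RING ligase gene whose kinship to Znrf3 beyond the name was not examined. It was at 163 ± 48.6, 75.3 ± 29.9 and 35.6 ± 13.3 CPM in the 3 groups, 4.57-fold lower at 14 days (adjusted p = 0.0104 by edgeR). It missed the threshold without 14-day replicate 2 (adjusted p = 0.0506 by edgeR). At 6 days Znrf2 was lower by DESeq2 (adjusted p = 0.0278), limma-voom (0.0267) and edgeR with the identifier range as a covariate (0.00192), and from 6 to 14 days under 4 of 9 settings (lowest 0.000793 by limma-voom). Rnf167 (236 and 248 CPM in control and at 14 days), Rnf215 (62.8 and 56.4 CPM) and Rnf149 (73.3 and 76.5 CPM), which share the protein architecture of RNF43, were not called by edgeR in any comparison. Whether Rnf43 differed from these genes was not tested.

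Genes that mark the follicle compartments of Lgr5 and Lgr6 cells moved both ways. Of 13 such genes, all tested, Krt15 was higher at 6 days, and Krt15, Nfatc1 and Gata6 were higher and Tbx1 lower at 14 days against control. Those are edgeR's calls, and from 6 to 14 days it made none (4 had an unadjusted p under 0.05), while DESeq2 called Tbx1 lower (adjusted p = 0.0293) and limma-voom called Nfatc1 (0.00384) and 1 other gene higher. At 6 days DESeq2 called 2 of the list higher and 1 lower (4.51% of all genes called), and limma-voom 3 and 1 (4.41%). Both called Gata6 higher and Tbx1 lower there. At 14 days against control DESeq2 called 3 higher and 2 lower (14.7% of all genes called), and limma-voom 5 and 2 (22.4%). Krt15, a keratin of the bulge, was 3866 ± 527, 14179 ± 6032 and 11849 ± 2407 CPM (adjusted p = 0.0166 at 6 days and 0.0223 at 14 days by edgeR). Nfatc1, a factor of quiescent bulge cells, rose 3.26-fold to 1167 ± 398 CPM at 14 days (adjusted p = 0.0246 by edgeR). Gata6, a factor of the upper follicle, rose 2.59-fold to 62.9 ± 4.97 CPM (adjusted p = 0.0344 by edgeR). Tbx1, a transcription factor of follicle stem cells, was 355 ± 70.0 CPM in control and 4.78-fold lower at 14 days, at 74.2 ± 37.1 CPM (adjusted p = 0.00939 by edgeR). Leaving out 1 library ended the 14-day call in 4 of 15 fits for Krt15 (without control 2 or 3 or 14-day replicate 2 or 3), in the same 4 for Nfatc1 and in 6 for Gata6 (without control 2, 3 or 4 or any 14-day replicate). The highest adjusted p among them were 0.0754, 0.0987 and 0.0935 by edgeR, and for Tbx1 all 15 held. The fit of only the 2 groups also ended the 14-day calls of Nfatc1 (adjusted p = 0.0728 by edgeR) and Gata6 (0.0952). The Krt15 call at 6 days was lost without control 2 or 3, with adjusted p up to 0.0756 by edgeR, and within range B, where it was 0.182.

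The genes whose profile lay nearest to a member's were found among 9743 genes that averaged 10 CPM or more, by Pearson's r of log2 CPM over the 15 libraries. Rnf43 lay nearest to Lrrk1 (r = 0.96), Fam160b2 (0.91) and Ankrd50 (0.89). For Znrf3 they were Irf3 (0.90), Imp3 (0.88) and Nat9 (0.86). For Lgr4 they were Mxra7 (0.92), Palm (0.92) and Sdc3 (0.91), a syndecan. For Lgr5 they included Fcgrt (0.92) and Tcaf1 (0.91), and for Lgr6 they were Napepld (0.86), Dusp26 (0.85) and Osbpl1a (0.85). Rspo1, at 0 to 91 reads per library, lay nearest to Ptpdc1 (0.88), Sardh (0.82) and Fndc3b (0.80). Within the 8 libraries of range A the r of Rnf43 with Lrrk1 was 0.97 and that of Lgr4 with Mxra7 0.94. Choosing the nearest 3 within range A alone gave other genes for each of the 5 receptors and ligases (0 of 3 shared) and 1 shared gene of 3 for Rspo1. The libraries share their groups, ranges and depth, so these values describe the samples only.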

How the data were processed

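Sorted tumour cells were measured by polyA RNA-seq in 15 libraries, grouped by treatment label, with replicate numbers in accession order. Per the file headers, each file holds deposited counts of reads per Entrez gene and RPKM values adjusted by a size factor. RPKM was a fixed multiple of the count per gene and library (largest relative deviation 3.5e-13) and served for levels between genes only. GSNAP and GRCm38 are named in the submitters' processing notes, without versions. Of 36528 genes, 31049 matched RefSeq symbols, and the 5479 others held 1.24 to 1.59% of counts.

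The quasi-likelihood F test of edgeR 4.0.16 (R 4.3.3) was run on the counts with TMM factors and filterByExpr by group, in 1 fit of 15 libraries without covariate. It tested 18751 genes with 12 residual degrees of freedom, and the common biological coefficient of variation was 0.579. The call rule was a Benjamini-Hochberg adjusted p under 0.05. Rspo2, Rspo3 and Rspo4 fell under the filter and had exact permutation tests (pseudocount 0.1 CPM). CPM are TMM-scaled, and ± is the SD between libraries.

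The members, lists and tests were chosen with earlier results of these data known. Named genes were all 9 members and, per list, up to 4 genes: those called in order of adjusted p, then those of highest RPKM. Axin2, Ccnd1 and Lef1 were added after their values were seen. Likeness used a prior count of 2 and left out sex-linked genes, and 1 gene it named is not reported here. Alternatives were RLE and upper-quartile factors, 2 other filters (none, and 1 CPM in 3 libraries), fits of the 2 groups compared, identifier ranges, DESeq2 1.42.0, limma-voom with sample weights (limma 3.58.1) and each library left out. Range B as a covariate or left out, and pseudocounts of 0.01 and 1 CPM, were chosen after seeing the data. Scripts were tested on simulated data. Tables were made in Python 3.11.15 (pandas 2.3.3, numpy 2.4.6), permutation tests with scipy 1.17.1 and figures with matplotlib 3.10.9.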

Additional observations from a re-analysis of the deposited data

Results flagged for a closer look

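The single Rspo2 read of the series, 0.0306 CPM in 6-day replicate 1, stood apart because the other 7 libraries of its group had 0. Among 16 sets of 4 or 8 libraries checked for such a gap it was the 1 found. With 1 read beside 7 zeros the gap is the largest possible by construction, so the check cannot judge it.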

How the results depend on the processing

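The Rnf43 call at 14 days against control held under all 9 other settings (log2 fold change 1.43 to 1.55, adjusted p from 2.14e-06 to 0.0297 by edgeR, DESeq2 or limma). The number of members called at 6 days was 1 with range B as a covariate and 1 with DESeq2 (Rnf43 in both), where 4.62% and 4.51% of all genes were called. At 14 days against control limma-voom called 2 members, Lgr6 (adjusted p = 0.0442 by limma) beside Rnf43, and 22.4% of all genes. For 14 against 6 days range B as a covariate called 1 member (Rnf43) and 10.9% of genes, and DESeq2 and limma-voom each called 2 (Rnf43 and Znrf3), with 13.8% and 25% of genes. Leaving out 1 library gave 0 to 1 members there, Rnf43 being called without control 1, 2 or 4 or 6-day replicate 6. Of the 9 permutation tests 2 were under 0.05, and 1 to 2 with 1 library left out, since a smaller control or 14-day group raises the smallest p. No called value of a member changed sign. Among values not called, Lgr5 from 6 to 14 days had the other sign in 12 of 24 settings (-0.38 to 0.38), and Rspo1 in 2, 4 and 3 of 21 in the 3 comparisons. Over all genes, edgeR's 236, 1238 and 730 calls ranged over the settings from 69 to 866, from 374 to 4205 and from 3 (without 14-day replicate 1) to 4693. No paired analysis was possible because the labels give no replicate numbers that groups share. Depth limits the R-spondins most, at 0.0117 to 0.11 CPM for 3 counts. The causes of these differences were not tested.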
